A study of Mus musculus with 12 samples.

Results

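Axon guidance ligands and receptors were followed through the transition of mouse embryonic stem cells (ESCs) to epiblast-like cells (EpiLCs). The set was chosen by gene symbol, as the protein-coding members of the ephrin-A, ephrin-B, EphA, EphB, semaphorin, plexin, Slit and Robo families together with Nrp1, Nrp2, Ntn1, Dcc and Unc5a to Unc5d, without the Slitrk genes. It held 66 of the 51467 genes in the deposited table: 5 ephrin-A, 3 ephrin-B, 9 EphA, 5 EphB, 20 semaphorin, 9 plexin, 2 neuropilin, 1 netrin, 5 netrin receptor, 3 Slit and 4 Robo genes. The 12 libraries formed 4 groups of 3. ESCs were held in the naive state in serum medium with the cytokine LIF and the 2i inhibitors PD0325901, which blocks MEK, and CHIR99021, which blocks GSK3. EpiLCs, which model the epiblast after implantation, were taken 56 h after withdrawal of LIF and 2i. Cells of both types were labelled for 30 min with 500 µM 4-thiouridine (4sU), which enters RNA as it is made, and each RNA preparation was divided into total RNA, depleted of ribosomal RNA, and nascent RNA, captured through the 4sU label. All cells came from 1 ESC line, V6.5 carrying miR-290-mCherry and miR-302-GFP reporters, so other lines are not represented. The labels number the replicates but do not say that they were separate cultures. The study calls them biological replicates and does not describe how they were kept apart. Every p-value measures the spread among these libraries.

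Guidance ligands and their receptors steer growing axons by attraction and repulsion, and the same proteins set tissue boundaries and cell positions in the early embryo. Ephrins are bound to the cell surface, by a lipid anchor in class A and by a transmembrane segment in class B, and signal through Eph receptor tyrosine kinases on neighbouring cells. Semaphorins act through plexins, and most secreted class 3 semaphorins need a neuropilin as co-receptor. Netrin-1 acts through Dcc and Unc5 receptors, and Slits act through Robo receptors. In bulk RNA of this kind, fewer cells of a type and less RNA per cell cannot be told apart.

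Deposited counts summed to between 3097693 and 5385644 reads per nascent library and between 9300845 and 21975684 per total library. Levels of a gene in a library are given as CPM (counts brought to a common library size), adjusted with TMM factors (trimmed mean of M values), and levels of different genes are compared only as CPM per kilobase of exon (RPKM). A member was called where limma-voom, fitted to all 12 libraries, gave an adjusted p (Benjamini-Hochberg) under 0.05 over all 14731 genes kept by the expression filter and a log2 fold change above 1 or below -1. The naive list was lower in EpiLCs for 10 of its 10 genes in total RNA, with summed levels of 3666 to 3888 CPM in ESCs and 327 to 338 CPM in EpiLCs. Primed markers were higher for 6 of 7, with summed levels of 277 to 329 CPM in ESCs and 1642 to 1980 CPM in EpiLCs.

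ESC replicate 3 stood apart from the other ESC libraries for several guidance genes. Its level differed at least 2-fold from the mean of ESC 1 and 2, in the same direction in total and nascent RNA, for 5 of the 47 members kept by the filter (10.6%) and for 3.08% of all genes kept. Sema5a and Sema6a were high in it, at 5.88 and 5.39 times that mean in total RNA and 3.86 and 3.6 times in nascent RNA. Epha1, Epha8 and Sema3e were below that mean, at 0.166, 0.491 and 0.472 times in total RNA and 0.251, 0.424 and 0.293 times in nascent RNA. For Epha8 the nascent ratio rests on 1, 6 and 1 reads in ESC 1, 2 and 3. There ESC 3 was not below ESC 1 (0.271 against 0.204 CPM), so the ratio comes from ESC 2. ESC 1 and ESC 2 differed by at most 1.53-fold in total RNA for any member kept, and by 5.25-fold in nascent RNA for Epha8. Results that rest on these genes are given with and without both libraries of ESC 3.

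**Figure D1:**
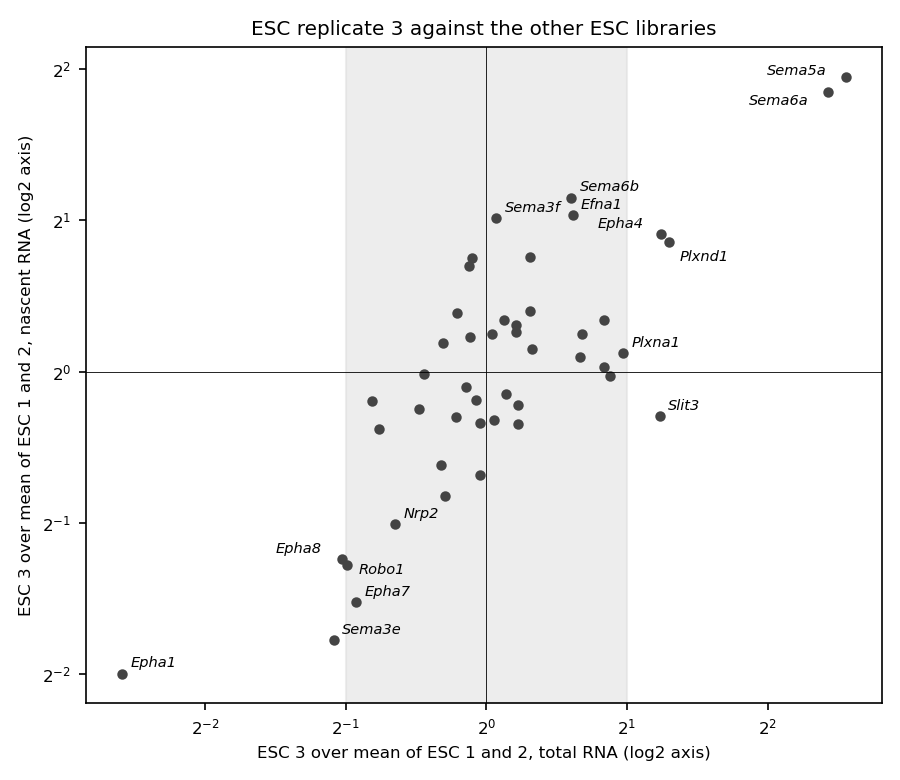
ESC replicate 3 over the mean of ESC 1 and 2 for the 47 guidance genes kept by the filter, in total RNA (horizontal, log2 axis) and nascent RNA (vertical, log2 axis); each point is 1 gene and the grey band spans less than a 2-fold difference in total RNA. Sema5a and Sema6a lie at the upper right, at 5.88 and 5.39 in total RNA, and Epha1 lies lowest at 0.166.

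In total RNA, 15 of the 47 members kept by the filter were higher in EpiLCs (31.9%, against 16.3% of all genes kept) and 7 were lower (14.9%, against 11.2%). The other 25 were not called, of which 12 had an adjusted p under 0.05 with a fold change inside the limits. In nascent RNA, 11 were higher (23.4%, against 11.9%) and 9 were lower (19.1%, against 13.5%). The median log2 fold change over the members kept was 0.32 in total and 0.18 in nascent RNA, beside 0.02 and -0.09 over all genes kept. These shares and medians cover members that passed the filter only. Epha8, Sema3e and Unc5a reached it in EpiLC libraries alone and Sema4f in ESC libraries alone, so a difference in these is partly set by the filter. The libraries of the cell types did not overlap in total RNA for 34 members (72.3%) and in nascent RNA for 32 (68.1%), near the 68.6% and 60.7% of all genes kept.

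**Figure D2:**
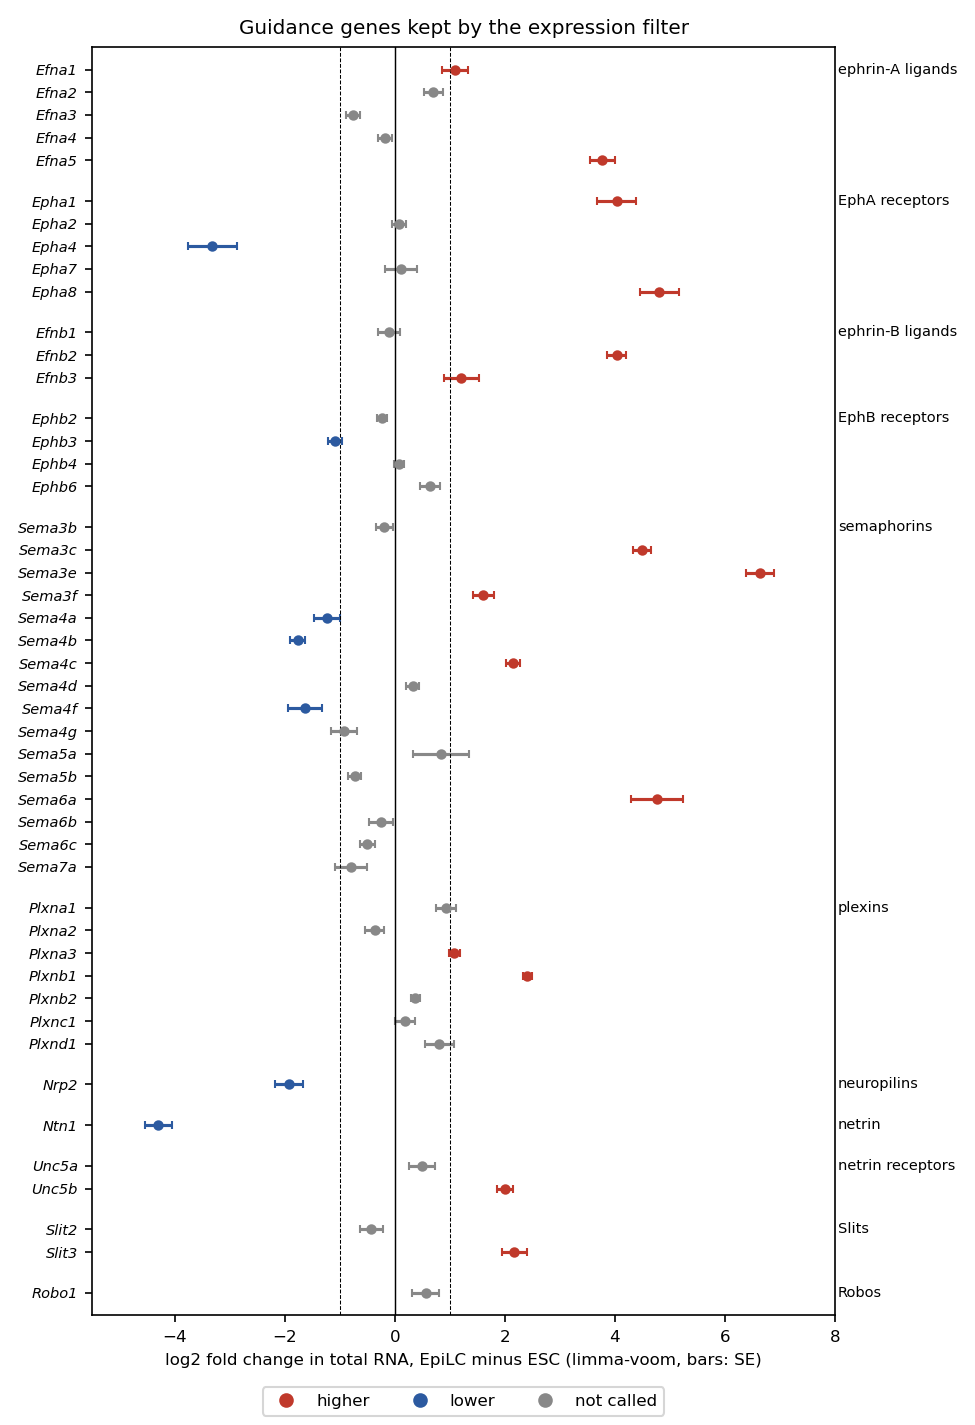
Log2 fold change in total RNA, EpiLC minus ESC, for the 47 guidance genes kept by the filter, by family (points: limma-voom estimate, bars: SE; dashed lines: -1 and 1; colour: called higher, called lower or not called). Sema3e stands at the right end at 6.64 and Ntn1 at the left end at -4.30.

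Among the ligands of Eph receptors, 4 of 8 ephrins were higher in EpiLC total RNA by limma-voom. By limma-voom, edgeR or DESeq2, 0 were lower. Over all genes kept, 16.3% were higher and 11.2% lower by limma-voom, and these shares stand beside each count by family below. At an unadjusted p under 0.05 there was 1 lower, Efna3, which passed the adjusted p as well and missed the fold limit. The ephrins called higher were 2 of 5 ephrin-A genes (Efna1 and Efna5) and 2 of 3 ephrin-B genes (Efnb2 and Efnb3). Efnb2, a transmembrane ligand best known from arterial vessels and hindbrain boundaries (ENSMUSG00000001300.16, mm10 chr8:8617434-8661242, minus strand), had 4.93, 5.74 and 8.45 CPM in the ESC total libraries and 101, 89.6 and 104 CPM in the EpiLC total libraries. Its nascent libraries held 29.2, 18.4 and 25.5 CPM in ESCs and 232, 215 and 231 CPM in EpiLCs. Every EpiLC library lay far above every ESC library in both assays. The log2 fold change was 4.03 ± 0.17 (SE) in total RNA (limma-voom, adjusted p = 1e-10) and 3.25 ± 0.16 in nascent RNA (limma-voom, adjusted p = 1.83e-09).

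Efna5, a lipid-anchored ligand that shapes the retinotectal map (ENSMUSG00000048915.12, chr17:62604184-62881317, minus strand), had 1.27, 1.36 and 2.36 CPM in ESC total and 24.9, 19.6 and 19.1 CPM in EpiLC total libraries. In nascent RNA it had 5.52, 4.29 and 6.24 CPM in ESCs and 40.8, 38.1 and 39.5 CPM in EpiLCs. The groups did not overlap in either assay. It rose by 3.77 ± 0.23 on the log2 scale in total RNA (limma-voom, adjusted p = 3.56e-09) and by 2.90 ± 0.23 in nascent RNA (limma-voom, adjusted p = 1.84e-07).

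The remaining ephrins were low or moved little. Efna1 rose by 1.09 ± 0.23 and Efnb3 by 1.21 ± 0.31 on the log2 scale in total RNA (limma-voom, adjusted p = 0.000677 and 0.00332), and neither was called in nascent RNA, where their log2 values were 0.52 and -0.44. Both were scarce, with at most 6.25 and 4.13 CPM in any total library. Efna1 was not called by DESeq2, where its log2 value was 0.98, nor without the second ESC total library, where it was 0.84. Efna3 and Efna4, which lie 10.4 kb apart, had log2 values of -0.76 ± 0.13 and -0.18 ± 0.13 in total RNA. Per length, Efna4 had the highest level of the ephrin-A ligands in total RNA of both cell types, at 10.2 RPKM in ESCs and 9.04 RPKM in EpiLCs. Efnb1 was at 1.64 RPKM in ESC and 1.54 RPKM in EpiLC total RNA and was not called (log2 -0.11 ± 0.20, limma-voom adjusted p = 0.645).

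Nascent RNA reads the output of promoters more directly than total RNA, so the promoter windows of a pair of genes that rose and a pair that fell in both assays are printed with their values. A window runs from 250 bases before to 50 bases after the RefSeq start on the gene's strand (GRCm38.p6, the patched release of the build named mm10). Of the 66 members, 56 had an entry, with 72 windows in all. Capitals mark matches, on either strand, to GGGCGG (the GC box), CTTTGAT (a TCF/LEF motif), TAATCC (a bicoid-type homeodomain motif, the type read by Otx2) and AAGGTCA (an Esrrb-type motif), none of which contains another. Efnb2 stands for the ligands that rose, chr8:8661193-8661492 on the minus strand, and Epha4 for the receptors that fell, chr1:77515039-77515338 on the minus strand.
Efnb2: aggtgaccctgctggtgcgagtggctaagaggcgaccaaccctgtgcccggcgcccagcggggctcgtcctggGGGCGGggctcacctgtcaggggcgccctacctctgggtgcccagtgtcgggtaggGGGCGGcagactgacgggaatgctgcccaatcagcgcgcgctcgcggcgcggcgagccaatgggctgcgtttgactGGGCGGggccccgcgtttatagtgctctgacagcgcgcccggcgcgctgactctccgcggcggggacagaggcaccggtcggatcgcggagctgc
Epha4: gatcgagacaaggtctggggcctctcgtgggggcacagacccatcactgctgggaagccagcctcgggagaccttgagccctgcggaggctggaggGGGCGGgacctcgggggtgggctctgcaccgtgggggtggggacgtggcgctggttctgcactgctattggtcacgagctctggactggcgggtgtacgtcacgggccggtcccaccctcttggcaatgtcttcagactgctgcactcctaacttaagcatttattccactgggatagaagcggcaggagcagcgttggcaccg
The Efnb2 window held 3 GC boxes, 35 CpG dinucleotides and 72.3% G and C, and the Epha4 window held 1 GC box, 17 CpG dinucleotides and 64% G and C. No capital in either marks one of the other 3 motifs. GC boxes occurred in 70.8% of the member windows, beside 35.7% of all 32851 windows and 64.1% of the 12470 windows of protein-coding genes kept by the filter. The homeodomain, Esrrb-type and TCF/LEF motifs were in 2.78%, 4.17% and 1.39% of the member windows, beside 7.06%, 4.72% and 3.73% of all windows and 5.37%, 3.13% and 2.48% of those of protein-coding genes kept. A match describes the letters and is not a bound site.

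Eph receptors moved in opposite directions within the family. Of the 5 EphA receptors kept, 2 were higher and 1 was lower in total RNA, and of the 4 EphB receptors kept, 1 was lower and 0 were higher by limma-voom, edgeR or DESeq2. At an unadjusted p under 0.05 there was 1 higher, Ephb6, which passed the adjusted p as well and missed the fold limit. Of the EphA receptors called higher, Epha8 passed the filter through EpiLC libraries alone. Epha4, a receptor for ligands of both ephrin classes and a repellent receptor of motor axons (ENSMUSG00000026235.14, chr1:77367185-77515088, minus strand), had 63.7, 58 and 144 CPM in the ESC total and 10.5, 7.11 and 6.76 CPM in the EpiLC total libraries. Its nascent levels were 103, 86.8 and 178 CPM in ESCs and 17.7, 9.96 and 6.23 CPM in EpiLCs. The highest library in each assay was ESC 3, and no EpiLC library reached an ESC library. Epha4 fell by 3.32 ± 0.45 on the log2 scale in total RNA (limma-voom, adjusted p = 1.58e-05) and fell by 3.41 ± 0.57 in nascent RNA (limma-voom, adjusted p = 0.000178). Without both ESC 3 libraries the total value was -2.95.

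Epha1, the founding member of the Eph family (ENSMUSG00000029859.6, chr6:42358487-42373268, minus strand), went the other way. Its total libraries held 8, 6.24 and 1.18 CPM in ESCs and 76.9, 75 and 78.8 CPM in EpiLCs. In nascent RNA the ESC libraries held 3.27, 3.22 and 0.813 CPM and the EpiLC libraries 33.7, 29.9 and 33.2 CPM. Its lowest library was ESC 3 in both assays, and the cell types did not overlap. The log2 fold change was 4.03 ± 0.35 in total RNA (limma-voom, adjusted p = 1.65e-07) and 3.78 ± 0.71 in nascent RNA (limma-voom, adjusted p = 0.000493), and without both ESC 3 libraries the values were 3.44 and 3.24. Its exons share 236 bases with Zyx on the opposite strand, and the counting was strand-specific.

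Epha8, a receptor known from the midbrain (ENSMUSG00000028661.8, chr4:136929419-136956816, minus strand), was close to the detection limit in ESCs. It had 6, 9 and 2 reads in the ESC total libraries (0.348, 0.453 and 0.197 CPM) and 103, 105 and 99 reads in the EpiLC total libraries (11.5, 9.95 and 9.84 CPM). In nascent RNA it had 0.204, 1.07 and 0.271 CPM in ESCs and 3.77, 2.54 and 2.67 CPM in EpiLCs. All EpiLC libraries were above all ESC libraries, and the nascent difference rests on 1, 6 and 1 reads in ESCs. Its log2 fold change was 4.81 ± 0.36 in total RNA (limma-voom, adjusted p = 3.35e-08) and 2.51 ± 0.51 in nascent RNA (limma-voom, adjusted p = 0.000903). Without both ESC 3 libraries these values were 4.60 and 2.30, and without the second ESC nascent library the nascent value was 3.16. Epha8 passed the filter through EpiLC libraries alone, so its difference and p-values are partly set by the filter.

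Ephb3, a receptor that positions cells along the intestinal crypt (ENSMUSG00000005958.14, chr16:21204755-21223304, plus strand), had 50, 41.6 and 37 CPM in ESC total and 19.6, 18.9 and 22 CPM in EpiLC total libraries. The nascent libraries held 50.5, 46.9 and 55.6 CPM in ESCs and 18.6, 18 and 22.3 CPM in EpiLCs. The groups were apart in both assays. Ephb3 fell by 1.09 ± 0.12 on the log2 scale in total RNA (limma-voom, adjusted p = 2.18e-06) and fell by 1.38 ± 0.16 in nascent RNA (limma-voom, adjusted p = 8.67e-06). Without the first ESC total library its total value, -0.99, lay just inside the limit for a call.

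Epha2, a receptor known from epithelia and the gastrulating embryo, had the highest level per length of all 66 members in every group. Its mean level was 49.2 RPKM in ESC total, 52 RPKM in EpiLC total, 82.5 RPKM in ESC nascent and 126 RPKM in EpiLC nascent RNA. It was not called in either assay, with log2 values of 0.07 ± 0.13 in total RNA (limma-voom, adjusted p = 0.669) and 0.59 ± 0.14 in nascent RNA (limma-voom, adjusted p = 0.00225, fold inside the limits). Ephb4, the receptor paired with Efnb2 in vessels, had the highest level of the EphB receptors per length, at 16.8 RPKM in ESC and 17.8 RPKM in EpiLC total RNA, and was not called (log2 0.08 ± 0.09, limma-voom adjusted p = 0.443). Per length in total RNA, the EphA receptors in ESCs ran from Epha2 through Epha4 (14 RPKM) to Epha1 (1.52 RPKM) and Epha7 (1.47 RPKM), and in EpiLCs from Epha2 through Epha1 (22.7 RPKM) and Epha8 (2.21 RPKM) to Epha7 (1.62 RPKM) and Epha4 (1.28 RPKM). By mean, Epha4 thus went from the second to the fifth place and Epha1 from the third to the second. Epha1 and Epha7 in ESCs lay within the spread of the Epha1 libraries. Epha7 and Epha4 in EpiLCs were close as well, at 1.62 ± 0.04 and 1.28 ± 0.326 RPKM (SD), so the order of these pairs is not settled.

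**Figure D3:**
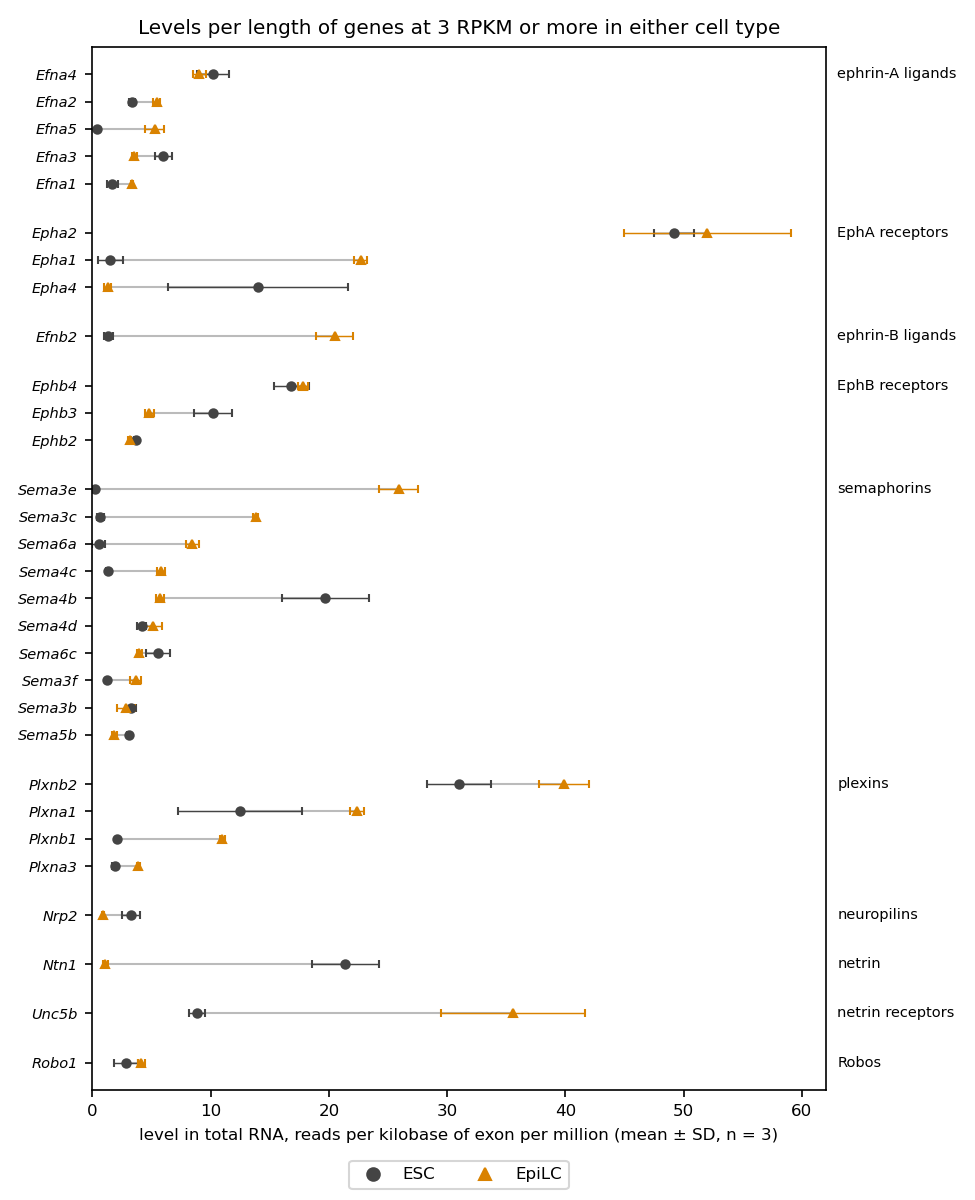
Mean level in total RNA per length (RPKM, points; bars: SD over 3 libraries) in ESCs (circles) and EpiLCs (triangles) for the 30 guidance genes at 3 RPKM or more in either cell type, grouped by family; a line joins the 2 levels of a gene. Epha2 lies highest in both cell types, at 49.2 and 52 RPKM, and Ntn1 and Sema3e show the longest shifts to the left and to the right among the ligands.

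Semaphorins supplied the member with the largest rise. Of the 20 semaphorin genes, 16 passed the filter, and 5 of these were higher and 3 lower in total RNA. Among those called, Sema3e passed through EpiLC libraries alone and Sema4f through ESC libraries alone. Their calls and p-values are partly set by the filter. Sema3e, a secreted ligand that binds Plxnd1 directly and repels vessels and axons (ENSMUSG00000063531.7, chr5:14025276-14256689, plus strand), had 2.2, 1.96 and 0.983 CPM in the ESC total and 176, 167 and 190 CPM in the EpiLC total libraries. Its nascent libraries held 2.45, 1.25 and 0.542 CPM in ESCs and 172, 172 and 203 CPM in EpiLCs. ESC 3 was the lowest in each assay, and the ESC total libraries held 38, 39 and 10 reads against 1578, 1767 and 1909 in EpiLCs. The log2 fold change was 6.64 ± 0.25 in total RNA (limma-voom, adjusted p = 4.26e-11) and 7.04 ± 0.43 in nascent RNA (limma-voom, adjusted p = 1.46e-08), and without both ESC 3 libraries it was 6.39 and 6.61. Its neighbours on chromosome 5 include Sema3a, 423 kb away, which had 0 reads in each ESC total library and 6, 10 and 12 in the EpiLC total libraries and fell below the filter.

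The promoter windows of Sema3e, the ligand with the largest rise, and of Nrp2, a semaphorin co-receptor that fell, are shown with the same marking, at chr5:14025026-14025325 and chr1:62703067-62703366, both on the plus strand.
Sema3e: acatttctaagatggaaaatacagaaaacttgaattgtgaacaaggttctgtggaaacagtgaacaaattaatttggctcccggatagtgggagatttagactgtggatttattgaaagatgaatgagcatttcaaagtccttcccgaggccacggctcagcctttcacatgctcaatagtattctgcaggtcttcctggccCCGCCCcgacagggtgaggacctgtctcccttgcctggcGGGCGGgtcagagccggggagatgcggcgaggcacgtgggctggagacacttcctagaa
Nrp2: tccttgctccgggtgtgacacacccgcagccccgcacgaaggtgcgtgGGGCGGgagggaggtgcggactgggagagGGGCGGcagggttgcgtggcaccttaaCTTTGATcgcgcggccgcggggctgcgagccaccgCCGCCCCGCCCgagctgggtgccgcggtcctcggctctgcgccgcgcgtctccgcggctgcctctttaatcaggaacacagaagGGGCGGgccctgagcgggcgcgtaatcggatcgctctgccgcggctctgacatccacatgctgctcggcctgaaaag
The Sema3e window held 2 GC boxes, 11 CpG dinucleotides and 50.7% G and C, against 5 GC boxes, 37 CpG dinucleotides and 70.7% in the Nrp2 window, which also held 1 TCF/LEF match. The median number of CpG dinucleotides was 19.5 over the member windows, 7 over all windows and 21 over windows of protein-coding genes kept by the filter. The Sema3e start is that of the deposited gene model, while the RefSeq start of Nrp2 lies within its deposited gene.

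Sema3c, a secreted ligand needed for the cardiac outflow tract (ENSMUSG00000028780.13, chr5:17574281-17730268, plus strand), had 3.3, 2.57 and 5.41 CPM in ESC total and 76.8, 74.4 and 76.2 CPM in EpiLC total libraries. In nascent RNA its levels were 3.07, 4.12 and 3.52 CPM in ESCs and 69.3, 76.7 and 81.9 CPM in EpiLCs. EpiLC libraries agreed closely with each other and lay above all ESC libraries. The gene rose by 4.49 ± 0.17 on the log2 scale in total RNA (limma-voom, adjusted p = 5.39e-11) and by 4.36 ± 0.28 in nascent RNA (limma-voom, adjusted p = 2.2e-08). Sema3f, a secreted ligand that prefers Nrp2 (ENSMUSG00000034684.12, chr9:107681500-107710475, minus strand), rose less, from 4.4, 3.83 and 4.33 CPM in ESC total to 14.7, 11.9 and 11.8 CPM in EpiLC total libraries. Its nascent levels were 6.54, 5.55 and 12.2 CPM in ESCs and 17.4, 13.1 and 13.1 CPM in EpiLCs. ESC 3 came close to the EpiLC libraries in nascent RNA without reaching them. The log2 value was 1.61 ± 0.19 in total RNA (limma-voom, adjusted p = 4.11e-06) and 0.98 ± 0.25 in nascent RNA (limma-voom, adjusted p = 0.00465), just inside the limit for a call, and the nascent value was 1.23 and called without both ESC 3 libraries.

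Sema6a, a transmembrane ligand of Plxna2 and Plxna4 (ENSMUSG00000019647.16), had 1.85, 1.21 and 8.26 CPM in the ESC total and 58.4, 57.7 and 64.5 CPM in the EpiLC total libraries. Its nascent libraries held 9.81, 8.59 and 33.1 CPM in ESCs and 196, 135 and 187 CPM in EpiLCs. In both assays ESC 3 was the highest ESC library, and still below every EpiLC library. The log2 fold change was 4.76 ± 0.47 in total RNA (limma-voom, adjusted p = 6.21e-07) and 3.70 ± 0.40 in nascent RNA (limma-voom, adjusted p = 3.45e-06). Without both ESC 3 libraries it was 5.31 and 4.17, and the lowest total value without any 1 library was 4.16, without the second ESC total library.

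The class 4 semaphorins, which are transmembrane ligands of B plexins among others, split. Sema4c, a ligand of Plxnb2 (ENSMUSG00000026121.13, chr1:36548639-36558349, minus strand), had 6.03, 5.54 and 5.01 CPM in ESC total and 23.2, 26 and 25.2 CPM in EpiLC total libraries. In nascent RNA it had 5.52, 7.34 and 8.41 CPM in ESCs and 34.2, 29 and 27.6 CPM in EpiLCs. Sema4b (ENSMUSG00000030539.13, chr7:80186841-80226527, plus strand) had 90.6, 84.6 and 62.7 CPM in ESC total and 21.8, 22.7 and 24.7 CPM in EpiLC total libraries. The cell types were apart for both genes, in opposite directions. Sema4b had nascent levels of 121, 123 and 103 CPM in ESCs and 29.5, 26.1 and 29.1 CPM in EpiLCs. Sema4c rose by 2.15 ± 0.13 in total RNA (limma-voom, adjusted p = 4.1e-09) and by 2.12 ± 0.19 in nascent RNA (limma-voom, adjusted p = 5.17e-07) on the log2 scale. Sema4b fell by 1.77 ± 0.14 in total RNA (limma-voom, adjusted p = 4e-08) and fell by 2.04 ± 0.16 in nascent RNA (limma-voom, adjusted p = 2.18e-07). Sema4a and Sema4f, at most 12.3 and 7.67 CPM in any total library, fell by 1.23 ± 0.24 and 1.64 ± 0.31 in total RNA (limma-voom, adjusted p = 0.000453 and 0.000296). Sema4f passed the filter through ESC libraries alone. Per length in total RNA, Sema4b had the highest level of the semaphorins in ESCs (19.7 RPKM) and Sema3e in EpiLCs (25.9 RPKM), where Sema4b was at 5.72 RPKM.

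Sema5a, a transmembrane ligand with thrombospondin repeats, shows what 1 library can do to a call. It had 6.66, 5.03 and 34.4 CPM in ESC total and 15.5, 17 and 15.4 CPM in EpiLC total libraries. The EpiLC libraries lay between ESC 3 and the other ESC libraries. The log2 value was 0.84 ± 0.51 in total RNA (limma-voom, adjusted p = 0.163), and 1.46 without both ESC 3 libraries (limma-voom, adjusted p = 2.87e-08).

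**Figure D4:**
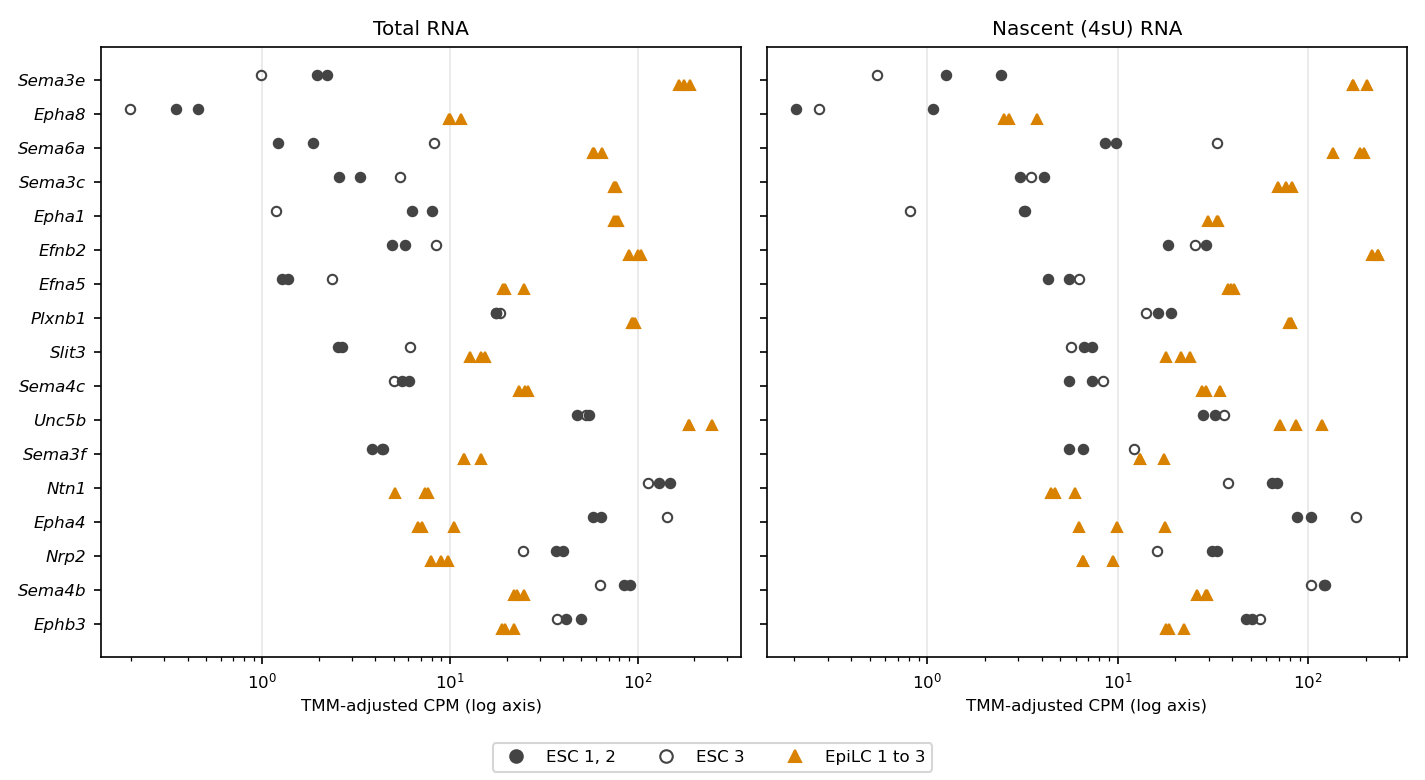
TMM-adjusted CPM (log axis) in every library for 17 guidance genes called in total RNA with at least 10 CPM on average in the higher cell type (the 12 largest rises and all 5 falls), in total RNA (left) and nascent RNA (right); circles: ESC libraries, open circle: ESC 3, triangles: EpiLC libraries. In total RNA the EpiLC libraries lie to the right of all ESC libraries for the upper 12 genes and to the left for the lower 5.

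Of the 7 plexins kept, 2 were higher in EpiLC total RNA, and 0 were lower by limma-voom, edgeR or DESeq2 or at an unadjusted p under 0.05. Plxnb1, the receptor of Sema4d (ENSMUSG00000053646.13, chr9:109095389-109119917, plus strand), had 17.6, 17.6 and 18.4 CPM in ESC total and 94.6, 93.3 and 97.4 CPM in EpiLC total libraries. In nascent RNA it had 16.2, 19 and 14.1 CPM in ESCs and 81.3, 81.2 and 78.9 CPM in EpiLCs. The libraries of a group lay close together and the groups far apart. It rose by 2.41 ± 0.08 on the log2 scale in total RNA (limma-voom, adjusted p = 1.34e-11) and by 2.27 ± 0.12 in nascent RNA (limma-voom, adjusted p = 2.64e-09). Its ligand Sema4d was not called (log2 0.32 ± 0.12 in total RNA).

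Among the other plexins, Plxna3 rose by 1.08 ± 0.10 in total RNA (limma-voom, adjusted p = 4.92e-07), and its value was 0.98, inside the limit, without the second ESC total library. Plxnb2 had the highest level of the plexins per length in total RNA of both cell types, at 31 RPKM in ESCs and 39.9 RPKM in EpiLCs, with a log2 value of 0.37 ± 0.08 that was not called. Plxna1 and Plxnd1, the receptor of Sema3e, had log2 values of 0.93 ± 0.18 and 0.81 ± 0.27 in total RNA and were not called. Without both ESC 3 libraries these were 1.22 and 1.10 and were called (limma-voom, adjusted p = 2.16e-12 and 1.37e-05). Plxnd1 was at 0.834 RPKM in ESC and 1.21 RPKM in EpiLC total RNA.

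Neuropilins were represented by Nrp2 alone after filtering. Nrp2, a co-receptor for Sema3c and Sema3f (ENSMUSG00000025969.15, chr1:62703285-62818695, plus strand), had 40.2, 36.7 and 24.6 CPM in ESC total and 9.71, 7.96 and 8.95 CPM in EpiLC total libraries. In nascent RNA it had 31.1, 33.3 and 16 CPM in ESCs and 6.6, 6.57 and 9.49 CPM in EpiLCs. ESC 3 was the lowest ESC library in each assay, and above every EpiLC library. Nrp2 fell by 1.93 ± 0.25 on the log2 scale in total RNA (limma-voom, adjusted p = 8.34e-06) and fell by 1.85 ± 0.38 in nascent RNA (limma-voom, adjusted p = 0.00101). Nrp1 had 2, 6 and 2 reads in ESC total and 0, 4 and 5 reads in EpiLC total libraries, and 37 bases of its exons are shared with Mir1903 on the same strand. Of the class 3 semaphorins kept, Sema3c, Sema3e and Sema3f therefore rose in total RNA while the neuropilin that was measurable fell. Sema3b, also kept, was not called (log2 -0.19 ± 0.16, limma-voom adjusted p = 0.332).

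Netrin-1 showed the largest fall of the set. Ntn1, a secreted cue of the floor plate (ENSMUSG00000020902.12, chr11:68209364-68400823, minus strand), had 148, 130 and 114 CPM in ESC total and 7.59, 7.39 and 5.07 CPM in EpiLC total libraries. Its nascent levels were 68.3, 64.6 and 37.7 CPM in ESCs and 4.48, 4.66 and 5.93 CPM in EpiLCs. The cell types did not overlap in either assay. Ntn1 fell by 4.30 ± 0.24 on the log2 scale in total RNA (limma-voom, adjusted p = 1.86e-09) and fell by 3.49 ± 0.39 in nascent RNA (limma-voom, adjusted p = 4.35e-06). Per length it was at 21.4 RPKM in ESC and 1.1 RPKM in EpiLC total RNA.

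Of the netrin receptors, Unc5b rose. Unc5b, a repellent netrin receptor known from vessel tips (ENSMUSG00000020099.8, chr10:60762593-60831581, minus strand), had 55.2, 47.4 and 53 CPM in ESC total and 250, 187 and 189 CPM in EpiLC total libraries. Its nascent libraries held 32.5, 28.1 and 36.1 CPM in ESCs and 118, 71 and 86.3 CPM in EpiLCs. All EpiLC libraries were above all ESC libraries. The log2 fold change was 2.00 ± 0.15 in total RNA (limma-voom, adjusted p = 2.49e-08) and 1.50 ± 0.20 in nascent RNA (limma-voom, adjusted p = 2.6e-05). Unc5a, at the edge of the filter, was not called (log2 0.49 ± 0.24). Dcc, Unc5c and Unc5d were below it, with at most 6, 18 and 7 reads in any total library. Ntn1 and Unc5b, ligand and receptor, thus changed in opposite directions. Among Dcc and Unc5a to Unc5d, Unc5b had the highest level per length in total RNA of both cell types. It was at 8.84 RPKM in ESCs and 35.6 RPKM in EpiLCs. Neo1, a netrin-related gene outside the set, was at 14.3 RPKM in ESC and 14.8 RPKM in EpiLC total RNA.

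Slits and Robos, a ligand and receptor pair of midline repulsion, were mostly scarce. Slit3 (ENSMUSG00000056427.10, chr11:35121224-35708507, plus strand) had 2.67, 2.52 and 6.1 CPM in ESC total and 14.7, 12.8 and 15.4 CPM in EpiLC total libraries. Its nascent levels were 7.36, 6.62 and 5.69 CPM in ESCs and 24, 18 and 21.4 CPM in EpiLCs. ESC 3 was the highest ESC library in total RNA and the lowest in nascent RNA, and the cell types did not overlap. Slit3 rose by 2.17 ± 0.23 in total RNA (limma-voom, adjusted p = 1.09e-06) and by 1.65 ± 0.28 in nascent RNA (limma-voom, adjusted p = 0.000237) on the log2 scale. Slit2 had a log2 value of -0.43 ± 0.21 in total RNA and Robo1, the only Robo gene kept, 0.56 ± 0.25, and neither was called (limma-voom, adjusted p = 0.083 and 0.0694).

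The 19 members below the filter were Epha3, Epha5, Epha6, Epha10, Ephb1, Sema3a, Sema3d, Sema3g, Sema6d, Plxna4, Plxnb3, Nrp1, Dcc, Unc5c, Unc5d, Slit1, Robo2, Robo3 and Robo4. At the edge, the third highest library of Sema3d was at 2.9 CPM, just outside, and those of Unc5a and Sema7a were at 3.04 and 3.75 CPM, just inside. They were not tested in the fit on filtered genes, and the 4 described next were chosen after their reads were seen. Sema3d had 3, 2 and 8 reads in ESC total and 27, 22 and 27 in EpiLC total libraries. Sema6d had 0, 2 and 0 reads in ESC total and 11, 11 and 10 in EpiLC total libraries. Plxnb3 had 16, 19 and 11 reads in ESC total and 0, 1 and 1 in EpiLC total libraries. Robo4, known from endothelium, had 26, 17 and 15 reads in ESC total and 2, 1 and 2 in EpiLC total libraries. The ESC total libraries were the deeper ones, at 11024715 to 21975684 reads against 9300845 to 10917711 in EpiLCs, which favours more reads in ESCs. In CPM the groups were apart as well. In ESC against EpiLC total libraries, Sema3d had at most 0.786 against at least 2.08 CPM, and Sema6d at most 0.101 against at least 0.994 CPM. Plxnb3 had at least 0.927 against at most 0.0994 CPM, and Robo4 at least 0.856 against at most 0.223 CPM.

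Total and nascent RNA changed together for most members called. The study reported a close correlation of these changes over all genes, so this is not particular to the members. The share of all genes called in both assays was not computed. Of the 22 members called in total RNA, 17 were also called in nascent RNA in the same direction, 5 were called in total RNA alone (Efna1, Efnb3, Plxna3, Sema3f and Sema4a), and none was called in opposite directions. Ephb6, Plxna2 and Sema5b were called in nascent RNA alone, with log2 values of -1.16 ± 0.37, -1.45 ± 0.25 and -1.27 ± 0.21 (limma-voom, adjusted p = 0.016, 0.00025 and 0.000151). In total RNA their values were 0.64 ± 0.18, -0.37 ± 0.18 and -0.73 ± 0.12. A call in 1 assay alone is not a difference between assays, which the interaction of cell type and assay tests.

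**Figure D5:**
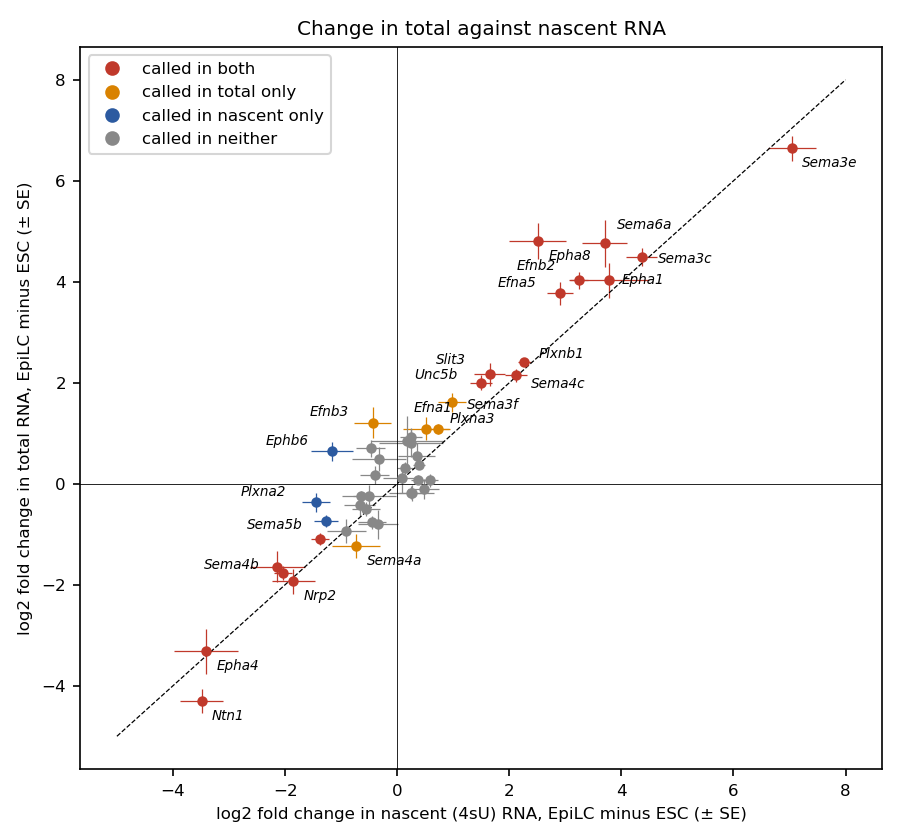
Log2 fold change, EpiLC minus ESC, in total RNA (vertical) against nascent RNA (horizontal) for the 47 guidance genes kept by the filter (limma-voom, bars: SE; dashed line: equal change; colour: the assays in which a gene was called). Most called genes lie near the dashed line, and Epha8 lies above it at 4.81 in total against 2.51 in nascent RNA.

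That interaction, the change in total RNA minus the change in nascent RNA, is the study's measure of a change in mRNA stability. It was called for 2 of the 47 members kept (4.26%), both higher in EpiLCs, beside 1.24% of all genes kept that were called higher and 0.305% called lower. None of the members was called lower by limma-voom, edgeR or DESeq2, a count of 0 beside 1 at an unadjusted p under 0.05. Ephb6, a receptor whose kinase domain lacks activity (ENSMUSG00000029869.7, chr6:41605482-41620509, plus strand), had 5.91, 5.89 and 5.41 CPM in ESC total and 9.6, 9.19 and 8.25 CPM in EpiLC total libraries. Its nascent libraries held 5.72, 4.65 and 8.41 CPM in ESCs and 3.06, 3.81 and 1.19 CPM in EpiLCs. Total RNA was higher and nascent RNA lower in every EpiLC library, the last EpiLC nascent library resting on 4 reads. The interaction was 1.79 ± 0.41 on the log2 scale (limma-voom, adjusted p = 0.0258). Leaving out any 1 of 12 libraries kept the call in 6 fits, with values from 1.30 to 2.12 and adjusted p up to 0.0834 in limma-voom. The libraries whose omission ended it were ESC total 1 and 2, EpiLC total 1 and 2, and EpiLC nascent 1 and 3, with interaction values of 1.72, 1.80, 1.75, 1.77, 1.83 and 1.30.

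Efna2, a lipid-anchored ephrin (ENSMUSG00000003070.6, chr10:80179482-80190010, plus strand), had 7.76, 6.8 and 6.78 CPM in ESC total and 11.9, 10.9 and 11.9 CPM in EpiLC total libraries. In nascent RNA it had 9, 9.12 and 15.2 CPM in ESCs and 10.8, 5.93 and 6.53 CPM in EpiLCs. The total libraries were apart and the nascent libraries overlapped. The interaction was 1.16 ± 0.31 (limma-voom, adjusted p = 0.0482), close to the threshold, and it was called in only 2 of 12 fits that left out 1 library (those without ESC nascent 1 and ESC total 3), over which its value ran from 0.88 to 1.35 and its adjusted p reached 0.148. Without both ESC 3 libraries the value was 0.96, inside the limit.

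Other members lay near the threshold. Epha8 had an interaction of 2.30 ± 0.63 (limma-voom, adjusted p = 0.0509), Efnb3 of 1.66 ± 0.45 (0.0519) and Plxna2 of 1.08 ± 0.31 (0.062). All 3 were called without both ESC 3 libraries, at 2.30, 1.53 and 1.18 (limma-voom, adjusted p = 0.0225, 0.017 and 0.00952), in a fit where 4 members in all were called and the share of all genes called higher rose from 1.24% to 4.75%. Another fit took cell type and replicate number together as a block, which pairs the total and nascent libraries of a number. It also called all 3, at 2.47, 1.62 and 1.02 (limma-voom, adjusted p = 0.0154, 0.0155 and 0.0468), with 2.97% of all genes called higher. Ephb6 and Efna2 stayed called in that fit. Without the second ESC nascent library, which held 6 of the reads of Epha8 in ESC nascent RNA, the interaction of Epha8 was 1.62.

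The ratio of total to nascent RNA within a cell type, the relative stability, spread widely over the members. No absolute scale was to be had, since the libraries were each scaled by their own totals. In ESCs the median log2 ratio of the members kept was -0.12, from -2.56 for Sema6a to 1.80 for Sema3b, beside 0.03 over all genes kept. In EpiLCs the median was 0.24, from -1.49 for Sema6a to 1.76 for Epha8, beside 0.15. Sema6a therefore had the lowest ratio of the members kept in both cell types, and 26 of the 47 members in ESCs and 23 in EpiLCs were below the median of all genes.

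Of 67 listed effectors and co-receptors of these pathways, 66 were found in the table and 60 passed the filter. In total RNA, 12 were higher in EpiLCs (20%, against 16.3% of all genes kept) and 4 lower (6.67%, against 11.2%), with a median log2 value of 0.21 beside 0.02 over all genes. In nascent RNA 11 were higher (18.3%, against 11.9%) and 3 lower (5%, against 13.5%), and for stability 0 were called by limma-voom or edgeR, with 5 higher and 6 lower at an unadjusted p under 0.05. The largest rises were in Vav3, a signalling protein used by Eph receptors (log2 4.04 ± 0.36 in total RNA, limma-voom adjusted p = 2.08e-07), Pak3, a protein kinase (3.63 ± 0.22, 3.66e-09), and Grip1, a scaffold that binds the tails of ephrin-B ligands (3.23 ± 0.20, 5.7e-09). Vav3 had 10.9, 9.19 and 8.85 CPM in the EpiLC total libraries and at most 0.805 CPM in an ESC total library. The largest falls were in Ablim1, an actin-binding LIM protein (-2.27 ± 0.20, limma-voom adjusted p = 1.78e-07), Mical1, an enzyme that oxidises actin downstream of plexins (-1.87 ± 0.10, 1.08e-09), and Dpysl3, a collapsin response mediator (-1.30 ± 0.09, 1.83e-08). By list, 5 of 15 semaphorin effectors were higher and 2 lower, 3 of 14 Eph and ephrin effectors were higher, 2 of 9 netrin-related genes were higher and 1 lower, and 1 of 11 Slit and Robo genes was higher and 1 lower.

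Guidance genes are also expressed by neurons, vessels and fibroblasts, so markers of those cells were read beside them. Of 11 neural markers, 10 passed the filter, 4 of which were higher (Pax6, Map2, Elavl3 and Nefl) and 2 lower (Ncam1 and Stmn2) in EpiLC total RNA. The summed level of the neural list ran from 446 to 561 CPM in ESC total and from 406 to 477 CPM in EpiLC total libraries, and in nascent RNA, where 6 were higher and 2 lower, from 168 to 204 CPM in ESCs and from 278 to 284 CPM in EpiLCs. Dcx, a marker of young neurons, had 0 reads in every ESC total library and at most 13 in an EpiLC total library. Of 5 endothelial markers only Tek passed, and it was lower. The endothelial sum was 13.9 to 20.6 CPM in ESC and 5.59 to 7.06 CPM in EpiLC total libraries, and Emcn had 0 reads throughout the total libraries while Cdh5 had at most 2. Of 12 fibroblast markers 6 passed, with 3 higher and 1 lower, and the sum was 16.8 to 25.8 CPM in ESC and 31.1 to 35.6 CPM in EpiLC total libraries. Of 6 primitive endoderm markers 3 passed, with 2 higher and 1 lower (sums of 3.36 to 9.54 and 16.8 to 18.4 CPM). Of 6 primitive streak and mesoderm markers 3 passed, with 2 higher (sums of 18 to 28.4 and 20.8 to 32.5 CPM), and their nascent sums were 23 to 29.5 CPM in ESCs and 46 to 98 CPM in EpiLCs. In nascent RNA the endothelial sums were 8.79 to 11.1 and 4.15 to 5.51 CPM, the fibroblast sums 12.9 to 16.5 and 18.2 to 22.8 CPM, and the primitive endoderm sums 12 to 14.5 and 28.5 to 38.6 CPM. The part of such cells in the changes of the guidance genes was not tested.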

How the data were processed

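The authors deposited 1 table of raw read counts per gene for 12 libraries. Per the file headers, the labels and the methods of the study, adapters were trimmed with cutadapt 1.14, single-end reads were aligned to mm10 with STAR 2.5.3a keeping unique positions, and featureCounts 1.5.3 counted them over the exons of GENCODE M14 genes on the reverse strand, without ribosomal RNA genes. Unique alignment drops reads shared by near-identical copies. The table also gives each gene's exon length in bases. Symbols and gene types came from GENCODE M21, which matched 99.6% of the genes, and 92 spike-in entries held 0 reads.

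The 14731 genes that reached 3 CPM in 3 or more libraries entered the test. With limma-voom (limma 3.58.1, TMM from edgeR 4.0.16, R 4.3.3), a linear model of the 4 groups was fitted over the 12 libraries, and p-values were adjusted over all genes kept. Contrasts set EpiLCs against ESCs in total RNA and in 4sU RNA, and the stability contrast was the former minus the latter. Median-of-ratios size factors, library totals, other filters, edgeR, DESeq2 1.42.0, quality weights, a replicate block and leaving out libraries were alternatives. The block was the replicate number for total and nascent RNA, and cell type and number together for stability. The calling code was tested on simulated data. Counts between replicates differed by more than sampling noise. Reads carried no molecular identifiers, so depth covers counting error only.

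Values in every library are given for members called in total RNA with at least 10 CPM on average in the higher cell type and no overlap, up to 12 in each direction, and for members called for stability. Other members are given by counts, ranges or single values. Of the other pathway genes the 3 largest rises and falls are named, and the counts of 1 list are not reported here. Sema5a, Plxna1 and Plxnd1 were chosen after their values were seen. The members, lists and markers were chosen with earlier results of these data known. Promoter sequences came from RefSeq (GRCm38.p6).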

Additional observations from a re-analysis of the deposited data

Results flagged for a closer look

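Ephb6 and Efna2 were picked out because their change between ESCs and EpiLCs differed between total and nascent RNA in the test of that difference itself, the interaction of cell type and assay in limma-voom. For Ephb6 the difference was 1.79 ± 0.41 on the log2 scale (adjusted p = 0.0258, range over the alternatives up to 0.0834), with total RNA higher in 3 of 3 and nascent RNA lower in 3 of 3 EpiLC libraries than in any ESC library. For Efna2 it was 1.16 ± 0.31 (limma-voom, adjusted p = 0.0482, up to 0.148 over the alternatives), with total RNA higher in 3 of 3 EpiLC libraries and nascent libraries that overlapped. ESC 3 was the highest ESC nascent library for both genes, at 8.41 CPM for Ephb6 and 15.2 CPM for Efna2, and its part in the result was not tested beyond leaving it out. Without both ESC 3 libraries Ephb6 had 1.58 and stayed called (limma-voom, adjusted p = 0.00799), and Efna2 had 0.96 and was not called.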

How the results depend on the processing

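Of the 22 members called in total RNA, 19 kept their call in every alternative fit that kept the limits on adjusted p and fold, and the exceptions were Efna1, Ephb3 and Plxna3, all near a log2 value of 1 or -1. In nascent RNA 19 of 20 did, the exception being Ephb6, and for stability 0 of 2 did. Without a filter beyond 1 read, all 66 members were tested, those with few reads included. Of these, 25 were higher in total RNA and 17 in nascent RNA, beside 13.2% and 8.86% of the 32144 genes tested. Falls were called as well. Of the members below the filter, Plxnb3 (log2 -3.35) and Robo4 (-2.60) were lower in total RNA and Robo4 (-2.36) in nascent RNA. Over all genes tested in that fit, 8.92% were lower in total RNA and 8.94% in nascent RNA. For stability 0 were called, beside 0.302% of all genes called higher and 0.255% called lower. With the adjusted p alone, 21 were higher and 13 lower in total RNA, beside 31.4% and 32.1% of all genes. The count of members higher for stability was 1 with median-of-ratios size factors, 1 with a filter at 1 CPM, 1 with edgeR, 5 with library totals alone, 4 with DESeq2, 5 with quality weights and 4 without both ESC 3 libraries, while the share of all genes called higher was 0.896%, 0.949%, 1.37%, 1.72%, 1.22%, 5.01% and 4.75% in that order, and the cause was not tested. Leaving out 1 library at a time gave 13 to 18 members higher and 6 to 8 lower in total RNA, beside 15.1% to 17.4% and 10.8% to 11.5% of all genes. In nascent RNA it gave 11 to 12 higher and 8 to 10 lower, beside 10.7% to 12.8% and 11.1% to 13.7%. For stability it gave 0 to 6 higher, beside 0.269% to 3.9% of all genes. The 6 members and the 3.9% both came from the fit without ESC total 3. For the other pathway genes it gave 0 to 1 higher for stability. Library totals alone moved the median of all genes in total RNA from 0.02 to 0.11 and turned no named change. The nascent libraries were the shallower ones, at 3097693 to 5385644 reads, and whether depth or the spread of single libraries limits the stability contrast was not tested.

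A fit with the replicate number as a block gave 15 members higher and 7 lower in total RNA, beside 16.3% and 11.4% of all genes. In nascent RNA it gave 11 and 9, beside 12% and 14%. For stability the block was cell type and number together, which pairs the total and nascent libraries of a number. The main fit did not pair them. The paired fit called 5 members higher for stability, where the share of all genes was 2.97%. These were Ephb6, Efna2, Epha8, Efnb3 and Plxna2. The numbers did not pair ESC with EpiLC libraries, whose deviations correlated at -0.13 to -0.01 across genes, while the assays of 1 ESC number correlated at 0.21 to 0.46 and those of 1 EpiLC number at 0.02 to 0.09.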

Other observations

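Among the members, 11 pairs of neighbours lay within 1 Mb of each other. Values of 4 of these pairs, chosen after they were seen, are given side by side. Ephb2 and Epha8 lie 93.4 kb apart on chromosome 4 and had log2 values of -0.24 ± 0.09 and 4.81 ± 0.36 in total RNA. On chromosome 6, Ephb6 and Epha1 lie 738 kb apart and had 0.64 ± 0.18 and 4.03 ± 0.35. Sema3b and Sema3f, 72.3 kb apart on chromosome 9, had -0.19 ± 0.16 and 1.61 ± 0.19. Efna1 and Efna3, 32.8 kb apart on chromosome 3, had 1.09 ± 0.23 and -0.76 ± 0.13. No test of neighbours was made.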
